A study of Mus musculus with 19 samples.

Results

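Quadriceps of mice carrying the AR113Q allele was compared with quadriceps of wild-type (CTR) mice when both had eaten a high-fat diet (HFD). The comparison held 9 of the 19 arrays of the study, 5 from AR113Q-HFD and 4 from CTR-HFD mice, chosen by their sample labels alone. AR113Q mice are a knock-in model of spinal and bulbar muscular atrophy (SBMA), in which the mutant protein carries an expanded polyglutamine tract and is made from its own locus in every tissue that uses it. All mice were male, congenic C57Bl6J and 180 days old, with the HFD given from day 40 of life. The other 10 arrays, 5 CTR-NCD and 5 AR113Q-NCD, came from mice on a purified normal chow diet (NCD) over the same period and are used beside the HFD values. Whether a sample held RNA of a single mouse is not given in the sources used here, so that p-values measure the spread between samples. Each array read 1 sample, and 24821 of 30325 gene names on the array had a probe bright enough to be tested.

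SBMA is a polyglutamine disease and leads to weakness of muscle and loss of lower motor neurons, in males and in the presence of androgens. In healthy muscle, synaptic activity keeps the genes of the acetylcholine receptor silent away from the neuromuscular junction, and loss of that activity lets myogenic factors such as myogenin turn them on along the fiber. Fast glycolytic fibers, of which mouse quadriceps is mostly made, run on glycogen and glycolysis and on a well developed sarcoplasmic reticulum, whereas slow fibers run on oxidative metabolism. Androgens act on muscle in part through polyamines, small cations whose synthesis starts with ornithine decarboxylase.

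Signals are log2 values from which the 75th percentile of the same array was subtracted, and a gene was read by its brightest tested probe. Fold changes are AR113Q-HFD over CTR-HFD, from limma fitted to all 4 groups, with Benjamini-Hochberg adjustment over 32021 probes. Probes well above background made up 67.1% to 77.4% on the 4 CTR-HFD arrays and 73.0% to 79.3% on the 5 AR113Q-HFD arrays, and their number limits the precision. The 9 arrays lay on 5 slides, 4 of which held an array of either group. The median log2 fold change of all genes was −0.08, and 39.5% of genes had a positive value. It was −0.17 for the 1000 brightest genes and −0.08 for the others, and after quantile normalization it was 0.05 and −0.01, so that small changes of bright genes depend on the scaling. On CTR-HFD replicate 3, slow fiber genes were far above those of the other CTR-HFD arrays (values are given with those genes). In whole muscle, fewer cells of a type and less RNA per cell cannot be told apart.

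Genes were counted where the adjusted p lay under 0.05 and the fold was either 1.5 or more, or 0.6 or less. By this rule 691 genes (2.78% of those tested) were higher in AR113Q-HFD than in CTR-HFD quadriceps, while 476 (1.92%) were lower. At an adjusted p under 0.05 alone, 1923 genes (7.75%) were higher and 2532 (10.2%) lower, and the gene lists below are read against these shares. Every AR113Q-HFD array lay above every CTR-HFD array for 1785 genes (7.19%) and below for 2101 (8.46%). Of the counted genes, 564 higher and 390 lower ones had arrays that did not overlap. Within all 4 slides that held both groups, 627 of the 691 higher genes were higher and 459 of the 476 lower genes were lower, though these were chosen on the same arrays. After quantile normalization 848 genes were higher and 415 lower, and after median centring 797 and 372, so that the higher genes were 59.2% of the counted genes here, 67.1% after the first and 68.2% after the second. With the slide as a block they were 49.5%, at 757 higher and 772 lower genes, and with normexp background correction 44.7%, at 199 and 246. At an adjusted p under 0.05 alone the higher genes were 43.2% of those that passed here, 56.4% after quantile normalization and 59.3% after median centring.

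**Figure D1:**
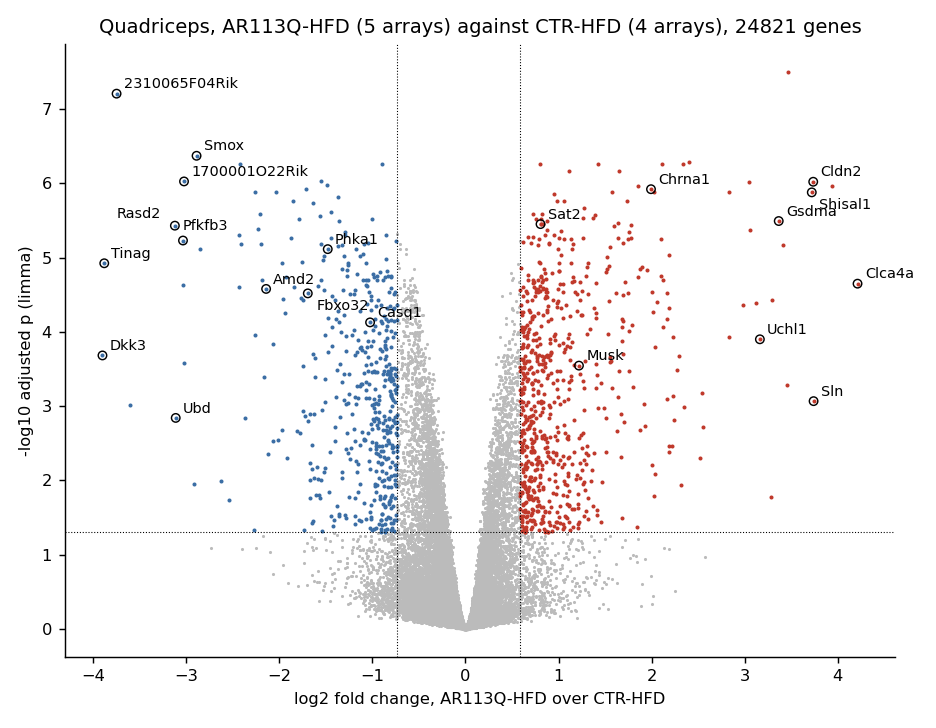
Log2 fold change of AR113Q-HFD over CTR-HFD quadriceps (x axis) against −log10 of the adjusted p from limma (y axis), 1 point per gene for 24821 genes; 691 red points are counted as higher, 476 blue points as lower, and dotted lines mark the thresholds. Named genes are circled: Clca4a, near the background in CTR-HFD, lies farthest right at 4.21 and Dkk3 farthest left at −3.90.

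Among counted genes with a gene symbol whose arrays did not overlap, the 10 with the highest fitted log2 difference were Clca4a, Sln, Cldn2, Shisal1, Scel, Ect2l, Gsdma, Enkur, Uchl1 and Baalc. Sln (NM_025540; mm9 chr9:53701574-53701633) encodes sarcolipin, a small inhibitor of the calcium pump of the sarcoplasmic reticulum, and had log2 signals of 1.27, −1.65, 2.73 and 1.19 on the CTR-HFD arrays and 5.13, 4.25, 4.46, 3.86 and 5.42 on the AR113Q-HFD arrays. All 5 AR113Q-HFD arrays lay above the highest CTR-HFD array, which was replicate 3, and the log2 fold change was 3.74 (SE 0.67; limma, adjusted p = 0.000856). Clca4a, of the family of calcium-activated chloride channel regulators, had log2 signals of −6.07, −5.95, −7.84 and −8.05 on the CTR-HFD arrays and −2.59, −2.53, −2.30, −3.34 and −3.07 on the AR113Q-HFD arrays. It was well above background on 1 of 4 CTR-HFD arrays and on all 5 AR113Q-HFD arrays, so that the fitted difference of 4.21 (SE 0.49; limma, adjusted p = 2.24e-05) rests on control signals near the background. With normexp background correction it was 1.42 (adjusted p = 0.265). Uchl1, a ubiquitin hydrolase best known from neurons, had log2 signals of −4.07, −4.14, −2.06 and −4.96 on the CTR-HFD arrays and −0.68, −0.22, −0.67, −1.27 and −0.38 on the AR113Q-HFD arrays. Its log2 fold change was 3.16 (SE 0.45; limma, adjusted p = 0.000126), and the AR113Q-HFD arrays lay closer together than the CTR-HFD arrays, of which replicate 3 was the highest. Shisal1 rose by 3.72 (SE 0.31; limma, adjusted p = 1.32e-06) on the log2 scale, Ect2l by 3.41 (adjusted p = 6.8e-06) and Gsdma, a gasdermin, by 3.36 (adjusted p = 3.21e-06), all with groups that did not overlap. Another tested probe of Shisal1 gave 0.12 (limma, adjusted p = 0.887) and did not pass, so that the rise holds for its brightest probe only.

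Several of these genes were close to the background in control muscle, which bounds how their size can be read. Cldn2, which encodes claudin 2 of tight junctions, was well above background on 0 of 4 CTR-HFD and on 5 of 5 AR113Q-HFD arrays and was at least 4.91-fold higher in AR113Q-HFD (adjusted p = 9.51e-07 from limma). Baalc was likewise measured on 0 of 4 and 5 of 5 arrays and was at least 4.02-fold higher (adjusted p = 4.14e-05). These folds set the mean of the bright group against the lowest signal that counts as well above background on each dim array, or the probe's own signal there if that was higher. Another Cldn2 probe had a log2 fold change of 1.39 (limma, adjusted p = 0.07) and did not pass. The bound given for Cldn2 is therefore that of its brightest probe. Scel, which encodes sciellin, showed a log2 change of 3.45 (adjusted p = 0.000518) with 1 of 4 CTR-HFD arrays well above background, and Enkur one of 3.30 (adjusted p = 3.72e-05) with 2 of 4. Normexp background correction was run with an offset of 50 added to the signals, which by itself shrinks the folds of dim probes. With it Cldn2 had 0.83, Baalc 0.60, Scel 1.13 and Enkur 0.93, and their calls and that of Clca4a were lost. The places of these 5 genes among the 10 are therefore not an order of measured folds.

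By the same rule, Dkk3, Tinag, 2310065F04Rik, Ppm1n, Rasd2, Ubd, Pfkfb3, Mss51, 1700001O22Rik and Htra4 had the 10 largest falls. 2310065F04Rik (NR_038055; mm9 chr11:66925963-66926022) is the long non-coding RNA also called linc-MYH, which lies beside the cluster of skeletal myosin heavy chain genes. It had log2 signals of 2.28, 2.48, 2.07 and 2.48 on the CTR-HFD arrays and −1.68, −1.26, −1.94, −0.72 and −1.5 on the AR113Q-HFD arrays. The spread within either group was small against the gap between them, and the log2 fold change was −3.75 (SE 0.22; limma, adjusted p = 6.19e-08). Dkk3, which encodes a secreted protein of the Dickkopf family, had log2 signals of 3.56, 4.23, 1.31 and 1.91 on the CTR-HFD arrays and −1.30, −2.08, −1.47, 0.43 and −1.32 on the AR113Q-HFD arrays. The groups did not overlap, although both were spread widely, and the log2 fold change was −3.90 (SE 0.59; limma, adjusted p = 0.000208). Rasd2, which encodes the small GTPase Rhes, had log2 signals of 4.71, 4.20, 3.77 and 4.88 on the CTR-HFD arrays and 1.14, 1.77, 0.85, 1.78 and 0.79 on the AR113Q-HFD arrays. The fitted log2 change was −3.12 (SE 0.29; limma, adjusted p = 3.71e-06).

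Pfkfb3, which makes the activator of phosphofructokinase, and Mss51, a zinc finger protein of fast muscle, both fell by more than 3 on the log2 scale. Pfkfb3 (NM_001177753; mm9 chr2:11393453-11393512) had log2 signals of 4.86, 5.29, 5.17 and 6.43 on the CTR-HFD arrays and 2.62, 2.53, 2.20, 2.90 and 1.77 on the AR113Q-HFD arrays. The log2 fold change was −3.03 (SE 0.30; limma, adjusted p = 5.88e-06), and another probe of the gene gave −3.31. Mss51 had −3.03 (adjusted p = 2.33e-05), 1700001O22Rik −3.02 (adjusted p = 9.41e-07) and the serine protease gene Htra4 −3.02 (adjusted p = 0.000263) as log2 fold changes. Tinag, well above background on 4 of 4 CTR-HFD and 1 of 5 AR113Q-HFD arrays, and the phosphatase gene Ppm1n, on 4 of 4 and 3 of 5, had log2 fold changes of −3.88 and −3.60 that rest on signals near the background. Ubd, which encodes the ubiquitin-like modifier FAT10, had log2 signals of −3.18, −1.60, −3.76 and −0.64 on the CTR-HFD arrays and −5.55, −5.77, −3.99, −5.81 and −5.92 on the AR113Q-HFD arrays. The groups came close to each other at CTR-HFD replicate 3 and AR113Q-HFD replicate 3, and the log2 fold change was −3.11 (SE 0.60; limma, adjusted p = 0.00144). The calls of Tinag, Ppm1n and Ubd were lost with normexp background correction.

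Genes of the acetylcholine receptor and the neuromuscular junction rose where they passed. Of 16 genes listed, all were tested, 6 were higher and 0 lower at an adjusted p under 0.05, and their median log2 fold change was 0.29 against −0.08 for all genes. The level of the list, as a mean of log2 signals, was −0.49 to −0.22 on the CTR-HFD arrays and 0.01 to 0.35 on the AR113Q-HFD arrays. The 6 were Chrna1, Lrp4, Musk, Ache, Chrnb1 and Dok7, and the count without CTR-HFD replicate 3 was again 6 and 0. The promoters of the α1 and β1 receptor subunits (Chrna1, Chrnb1), of the muscle-specific kinase (Musk) and of the adult ε subunit (Chrne), whose signal did not pass, are shown with their E-boxes, the sites that myogenic factors are known to bind. The 250 bases before the gene start are printed 5′ to 3′ on the strand of the gene, from RefSeq on GRCm38.p6, with each match to CANNTG in capitals.
Chrna1 (chr2:73580339-73580588, minus strand): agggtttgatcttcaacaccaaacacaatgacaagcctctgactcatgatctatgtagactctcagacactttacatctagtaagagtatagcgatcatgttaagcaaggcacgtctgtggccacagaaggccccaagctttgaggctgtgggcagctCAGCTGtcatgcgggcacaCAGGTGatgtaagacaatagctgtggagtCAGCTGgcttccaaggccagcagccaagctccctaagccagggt
Chrnb1 (chr11:69795938-69796187, minus strand): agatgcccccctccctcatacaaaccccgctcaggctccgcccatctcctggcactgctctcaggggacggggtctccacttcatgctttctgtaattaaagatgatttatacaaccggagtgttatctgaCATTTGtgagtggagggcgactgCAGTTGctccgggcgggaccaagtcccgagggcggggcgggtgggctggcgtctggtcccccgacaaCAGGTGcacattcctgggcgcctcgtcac
Musk (chr4:58285712-58285961, plus strand): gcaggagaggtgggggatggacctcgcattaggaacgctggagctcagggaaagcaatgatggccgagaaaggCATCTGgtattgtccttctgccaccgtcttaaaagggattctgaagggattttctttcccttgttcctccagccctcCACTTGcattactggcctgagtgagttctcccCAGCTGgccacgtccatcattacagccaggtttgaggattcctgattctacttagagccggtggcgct
Chrne (chr11:70619195-70619444, minus strand): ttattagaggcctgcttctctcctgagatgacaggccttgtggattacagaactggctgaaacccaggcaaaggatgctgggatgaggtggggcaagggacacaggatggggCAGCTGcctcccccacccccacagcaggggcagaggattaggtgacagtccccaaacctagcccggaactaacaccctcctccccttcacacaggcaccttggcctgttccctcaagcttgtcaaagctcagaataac
The Chrna1 window held 3 matches, CAGCTG at 92 and 44 and CAGGTG at 73 bases before the start, and the Musk and Chrnb1 windows held 3 each. The form CAGCTG, which reads the same on both strands, occurred in the Chrna1, Musk and Chrne windows and not in that of Chrnb1. Of 32851 promoter windows of this length, 13% held CAGCTG and 66.2% held CANNTG, which includes it. These are matches of letters. Chrng, which did not pass, held 3 matches with CAGCTG at 2 of them, as many as Chrna1, while Ache, which passed, held 1 match and no CAGCTG, and the pair of windows of Dok7, which passed, held 1 and 0 matches and no CAGCTG. Chrne, with a match, showed a log2 change of −0.02 (adjusted p = 0.962).

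Chrna1 (NM_007389; probe at mm9 chr2:73404112-73404171) had log2 signals of 1.92, 1.5, 1.61 and 1.31 on the CTR-HFD arrays and 3.76, 3.36, 3.51, 3.27 and 3.98 on the AR113Q-HFD arrays. Every AR113Q-HFD array was above every CTR-HFD array, and the log2 fold change was 1.99 (SE 0.16; limma, adjusted p = 1.2e-06), a 3.98-fold rise. Within the 4 slides the difference ran from 1.84 to 2.67, and another probe gave 2.21. Musk, the kinase that organises the junction, had log2 signals of −0.36, −0.32, 0.12 and −0.05 on the CTR-HFD arrays and 1.21, 1.13, 0.96, 0.54 and 1.49 on the AR113Q-HFD arrays. The groups did not overlap, and the log2 fold change was 1.22 (SE 0.19; limma, adjusted p = 0.000285). Lrp4, the receptor for agrin that switches on this kinase, rose by 1.23 (adjusted p = 2.16e-05) on the log2 scale, Chrnb1 by 0.99 (adjusted p = 0.000745) and the acetylcholine esterase gene Ache by 0.98 (adjusted p = 0.00034). The Lrp4 call was lost with normexp (adjusted p = 0.0557). Dok7, an activator of the kinase inside the fiber, rose by 0.56 (adjusted p = 0.0164), with overlapping groups, and its call was lost after median centring (adjusted p = 0.0668) and with normexp (adjusted p = 0.389). The δ and γ subunits Chrnd and Chrng had log2 fold changes of 0.36 (adjusted p = 0.552) and 0.39 (adjusted p = 0.386), which did not pass. Chrnd varied from −1.21 to 0.12 among CTR-HFD and from −0.87 to 1.04 among AR113Q-HFD arrays. On the NCD arrays, where 2063 of all genes (8.31%) were higher and 2244 (9.04%) lower at an adjusted p under 0.05, 5 of the 16 were higher and 0 lower, with a log2 fold change of 1.51 for Chrna1.

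**Figure D2:**
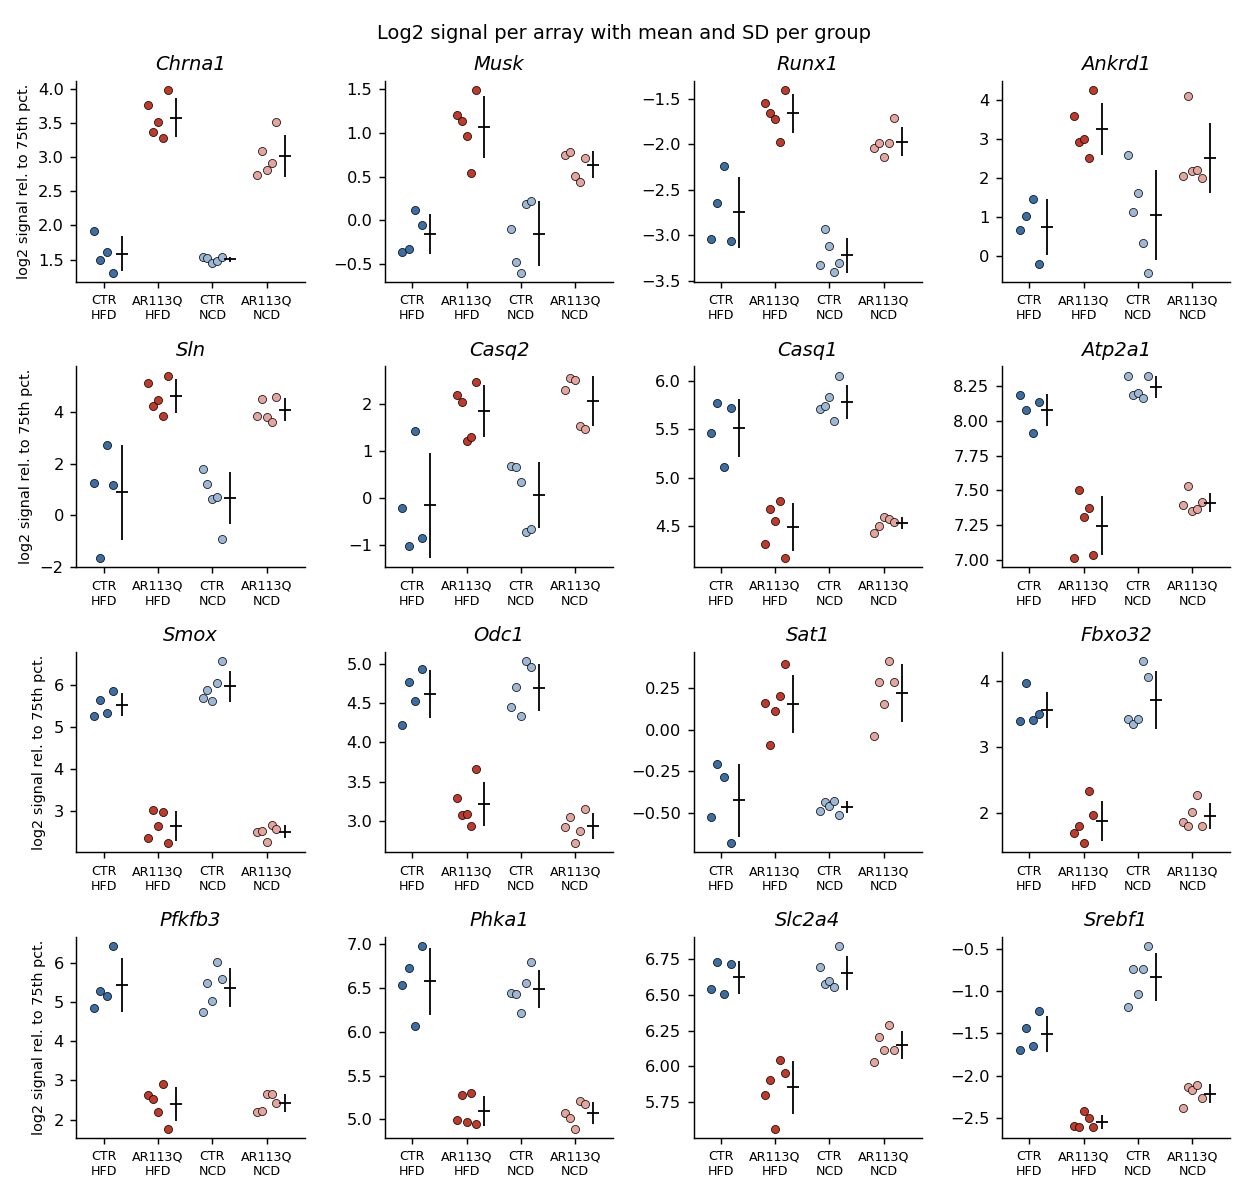
Log2 signal relative to the 75th percentile of the array (y axes, 1 scale per gene) on each of the 19 arrays for 16 genes, with CTR-HFD in dark blue, AR113Q-HFD in dark red and the NCD groups in pale colours; the horizontal tick and bar give mean and SD. The HFD groups do not overlap for any of these genes except Casq2, where CTR-HFD replicate 3 at 1.43 lies among the AR113Q-HFD arrays.

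Other genes known to respond to denervation were mixed. Of 15 listed and tested, 6 were higher and 1 lower, with a median log2 fold change of 0.43. Ankrd1, a stretch- and injury-responsive ankyrin repeat protein, had log2 signals of 0.66, 1.03, 1.46 and −0.21 on the CTR-HFD arrays and 3.60, 2.91, 2.99, 2.52 and 4.25 on the AR113Q-HFD arrays. Every AR113Q-HFD array was above the highest CTR-HFD array, which was replicate 3, and the log2 fold change was 2.52 (SE 0.57; limma, adjusted p = 0.00494). Runx1, a transcription factor induced in denervated fibers, had log2 signals of −3.04, −2.65, −2.24 and −3.07 on the CTR-HFD arrays and −1.55, −1.66, −1.72, −1.97 and −1.41 on the AR113Q-HFD arrays. On the log2 scale the change was 1.09 (SE 0.16, adjusted p = 0.000153 from limma), and a second probe gave 1.54. The Runx1 call was lost with normexp (adjusted p = 0.456). Gadd45a, a stress-induced gene, rose by 1.05 (adjusted p = 6.53e-05) on the log2 scale without overlap. The cell adhesion gene Ncam1 rose by 0.91 (adjusted p = 0.00497) and Myog, which encodes myogenin, by 0.70 (adjusted p = 0.0288), both with overlapping groups. The Myog call was lost without CTR-HFD replicate 3 (adjusted p = 0.0709) and under 9 of 31 alternatives in all. That of Ncam1 was lost with normexp (adjusted p = 0.279) and with only the 9 HFD arrays fitted (adjusted p = 0.0564). Cdkn1a, an inhibitor of the cell cycle, showed a log2 change of 1.11 (adjusted p = 0.00281) by its brightest probe, while its other probes gave −0.28 and −0.30 and did not pass. The embryonic myosin Myh3 varied from −3.74 to −0.50 among CTR-HFD and from −2.50 to 0.92 among AR113Q-HFD arrays, and its log2 fold change of 1.18 (adjusted p = 0.319) did not pass. The perinatal myosin Myh8 had −0.37 (adjusted p = 0.00965), a bright probe whose sign turned to 0.07 after quantile normalization and which had −0.60 with the authors' values. Its other probes gave −1.30, which passed, and 0.23, which did not.

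Enzymes of polyamine metabolism moved apart, with those of synthesis and of spermine oxidation lower and the acetyltransferases higher. Of 14 genes tested, 2 were higher and 6 lower, with a median of −0.13. Smox (NM_001177833; mm9 chr2:131350842-131350901), which encodes spermine oxidase, had log2 signals of 5.28, 5.65, 5.35 and 5.86 on the CTR-HFD arrays and 2.35, 3.02, 2.64, 2.99 and 2.24 on the AR113Q-HFD arrays. The groups lay far apart, the log2 fold change was −2.89 (SE 0.20; limma, adjusted p = 4.25e-07), and a second probe gave −2.85. Odc1, the ornithine decarboxylase that opens the pathway, had log2 signals of 4.23, 4.76, 4.53 and 4.93 on the CTR-HFD arrays and 3.30, 3.08, 3.09, 2.94 and 3.66 on the AR113Q-HFD arrays. The log2 fold change was −1.40 (SE 0.18; limma, adjusted p = 3.73e-05), with −1.37, −1.24 and −1.23 for its other probes. S-adenosylmethionine decarboxylase was read by a probe annotated to Amd2, an almost identical copy of Amd1 that the probe may not tell apart, and gave a log2 fold change of −2.14 (SE 0.26; limma, adjusted p = 2.64e-05). The spermine and spermidine synthase genes Sms and Srm had log2 fold changes of −0.74 (adjusted p = 0.00579) and −0.40 (adjusted p = 0.00199). Other Sms probes gave −0.51, which passed, and −0.41, which did not (adjusted p = 0.0615). Another Srm probe gave −0.40 and passed, but the Srm call was lost after median centring (adjusted p = 0.136) and with normexp (adjusted p = 0.254). In the other direction, Sat1, the spermidine/spermine acetyltransferase of polyamine breakdown, had log2 signals of −0.53, −0.20, −0.29 and −0.68 on the CTR-HFD arrays and 0.16, −0.09, 0.12, 0.20 and 0.40 on the AR113Q-HFD arrays. It rose by 0.58 (adjusted p = 0.00133) on the log2 scale and its relative Sat2 by 0.81 (adjusted p = 3.53e-06), both without overlap of the groups. On the NCD arrays Smox, Amd2 and Odc1 had log2 fold changes of −3.46, −2.30 and −1.76.

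Muscle ubiquitin ligases fell where they passed, with 1 exception. Of 15 genes of ubiquitin ligases and FoxO factors of atrophy, 1 was higher and 5 lower, with a median of −0.06 that was 0.05 after quantile normalization. By a dimmer probe, which these counts do not use, Foxo3 of this list rose by 1.08 (limma, adjusted p = 0.00166) on the log2 scale. Fbxo32, which encodes atrogin-1 and is known as a gene that rises in many forms of atrophy, had log2 signals of 3.39, 3.97, 3.41 and 3.50 on the CTR-HFD arrays and 1.70, 1.81, 1.54, 2.34 and 1.97 on the AR113Q-HFD arrays. Its log2 fold change was −1.69 (SE 0.21; limma, adjusted p = 3.03e-05), and the groups did not overlap. Trim63, which encodes MuRF1, showed a log2 change of −0.50 (adjusted p = 0.0189), with overlapping groups, and lost its call under each of the 4 other scalings (adjusted p of 0.0691 to 0.388). Klhl38 and Fbxo40, both muscle proteins of ubiquitin ligase complexes, had −0.75 (adjusted p = 0.000312) and −0.55 (adjusted p = 0.0025). Cblb was the gene that rose, by 0.34 (adjusted p = 0.0137) on the log2 scale, but its call was lost with the authors' values (adjusted p = 0.342), after median centring and with normexp, and another probe gave −0.05. Of 19 autophagy and lysosome genes, 5 were higher and 4 lower, with a median of 0.05. Map1lc3a, a coat protein of autophagosomes, had log2 signals of 4.32, 4.27, 4.20 and 4.18 on the CTR-HFD arrays and 4.99, 5.05, 5.06, 4.95 and 5.12 on the AR113Q-HFD arrays. It rose by 0.79 (adjusted p = 1.16e-05) on the log2 scale and Atg7, an enzyme of that coat, by 0.40 (adjusted p = 0.00145), whereas Lamp1 of the lysosome membrane and the kinase gene Ulk1 had −0.49 (adjusted p = 0.000187) and −0.52 (adjusted p = 0.00505). Another Atg7 probe gave 0.14 (adjusted p = 0.499). The Atg7 call was lost with the authors' values (adjusted p = 0.0679) and after median centring (adjusted p = 0.0549). The Ulk1 call was lost after median centring (adjusted p = 0.1) and, like those of Map1lc3a and Lamp1, with normexp. Of 31 proteasome subunits, 1 was higher and 8 were lower, at a median of −0.16 that was −0.03 with 2 higher and 2 lower after quantile normalization.

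Most genes of the sarcoplasmic reticulum and of calcium release were lower, whereas sarcolipin and the slow calsequestrin were higher. Of 20 tested, 2 were higher (Sln and Casq2) and 13 lower, with a median of −0.43 that was −0.16, with 2 higher and 8 lower, after quantile normalization. Asph of this list was not higher by its brightest probe, and its dimmer probes disagreed. They gave 1.45 (limma, adjusted p = 3.21e-06), 1.10 (adjusted p = 1.99e-05) and −0.54 (adjusted p = 0.00785). Casq1, the calsequestrin of fast fibers, had log2 signals of 5.47, 5.78, 5.12 and 5.72 on the CTR-HFD arrays and 4.31, 4.68, 4.55, 4.76 and 4.17 on the AR113Q-HFD arrays. The fitted log2 change was −1.03 (SE 0.14; limma, adjusted p = 7.44e-05). Casq2, the calsequestrin of slow fibers and heart, had log2 signals of −0.21, −1.02, 1.43 and −0.84 on the CTR-HFD arrays and 2.19, 2.04, 1.21, 1.30 and 2.47 on the AR113Q-HFD arrays. It rose by 2.0 (adjusted p = 0.00611) on the log2 scale, with CTR-HFD replicate 3 inside the range of the AR113Q-HFD arrays. Without that array its log2 fold change was 2.53 and that of Sln was 4.36. Atp2a1, the calcium pump of fast fibers, had log2 signals of 8.18, 8.08, 7.92 and 8.14 on the CTR-HFD arrays and 7.01, 7.50, 7.31, 7.38 and 7.03 on the AR113Q-HFD arrays. On the log2 scale the change was −0.83 (SE 0.09; limma, adjusted p = 1.74e-05), and −0.55 after quantile normalization, where the call was kept. The pump of slow fibers, Atp2a2, had a value of 3.35 on CTR-HFD replicate 3 and of 0.06 to 0.53 on the other CTR-HFD arrays, and its log2 fold change of 0.80 (adjusted p = 0.444) did not pass, while without that array it was 1.58 and passed (adjusted p = 0.0343). Jph2, which ties the reticulum to the surface membrane, had −0.97 (adjusted p = 0.000586). The release channel Ryr1 and the voltage sensor Cacna1s had −0.52 (adjusted p = 0.00189) and −0.53 (adjusted p = 0.000707). With the authors' values these were −0.27 (adjusted p = 0.149) and −0.21 (adjusted p = 0.0756).

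Slow fiber genes varied widely within both groups. Of 16 tested, 1 was higher and 1 lower, although 13 had a positive log2 fold change, and the median was 0.45. The level of the list, as a mean of log2 signals, ran from 0.54 to 4.47 on the CTR-HFD and from 1.38 to 3.88 on the AR113Q-HFD arrays. Myh7, the slow myosin heavy chain, had log2 signals of 2.60, −0.86, 6.44 and −2.24 on the CTR-HFD arrays and 5.47, 0.46, 0.04, 5.0 and 5.90 on the AR113Q-HFD arrays. CTR-HFD replicate 3 was the highest of all 9 arrays, AR113Q-HFD replicates 2 and 3 were lower than CTR-HFD replicate 1, and the log2 fold change was 1.89 (SE 1.60; limma, adjusted p = 0.49). The slow light chain gene Myl2 and the slow troponin genes Tnnt1 and Tnni1 had log2 fold changes of 1.53 (adjusted p = 0.535), 1.43 (adjusted p = 0.517) and 1.13 (adjusted p = 0.579). Without CTR-HFD replicate 3 the median of the list was 1.02, with 2 higher genes and 1 lower. The 1 that rose was Myl6b, by 0.35 (adjusted p = 0.00637) on the log2 scale, and the 1 that fell was Smtnl2, a smoothelin-like gene, with −1.37 (adjusted p = 6.89e-06). Their part in the other results was not tested beyond leaving out that array.

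**Figure D3:**
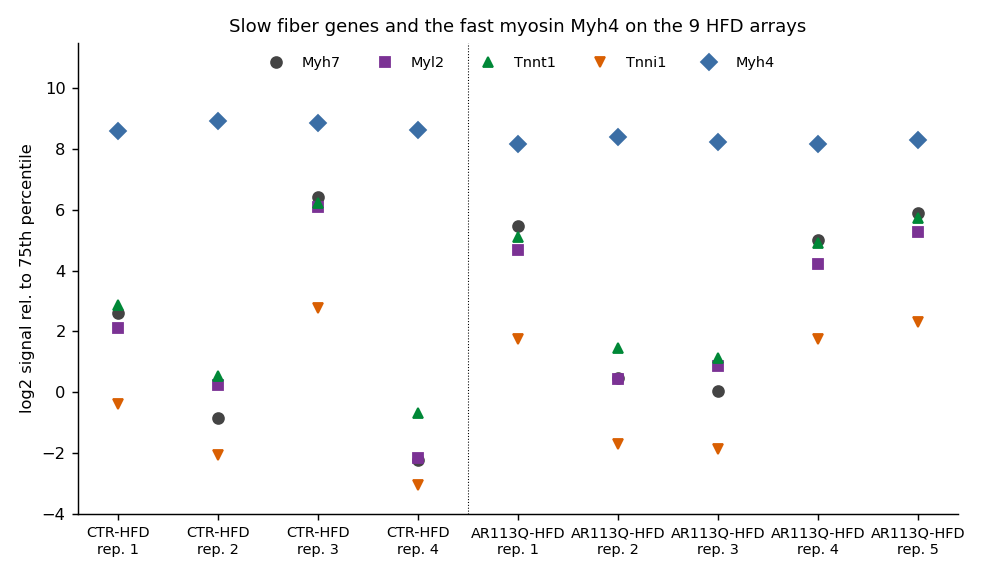
Log2 signal relative to the 75th percentile of the array (y axis) of 4 slow fiber genes (Myh7, Myl2, Tnnt1, Tnni1) and of the fast myosin Myh4 on each of the 9 HFD arrays (x axis), with a dotted line between the groups. The slow genes move together from array to array, with CTR-HFD replicate 3 highest and CTR-HFD replicate 4 lowest, while Myh4 stays between 8.15 and 8.91.

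Fast fiber genes were lower as a list, by amounts that depend on the scaling. Of 17 tested, 0 were higher and 13 lower by limma, with a median of −0.46, and 11 of them were among the 1000 brightest genes. After quantile normalization 3 were lower and the median was −0.05, and with the authors' values 5 were lower and the median was −0.03. Myoz1, a calsarcin of the fast Z-disc, had log2 signals of 8.22, 8.28, 7.99 and 8.30 on the CTR-HFD arrays and 7.25, 7.52, 7.36, 7.66 and 7.21 on the AR113Q-HFD arrays. Its log2 fold change was −0.80 (SE 0.09; limma, adjusted p = 2.55e-05), and −0.47 after quantile normalization (adjusted p = 0.00263). Actn3, the α-actinin of fast fibers, had −0.77 (adjusted p = 7.09e-05), and −0.34 after quantile normalization (adjusted p = 0.0333). The calls of the fast myosin Myh4, of Mybpc2 and of parvalbumin (Pvalb), at −0.50 (adjusted p = 0.000439), −0.51 (adjusted p = 0.000209) and −0.49 (adjusted p = 0.000492), were lost after quantile normalization, where the log2 fold changes were −0.01, −0.07 and −0.05. With the authors' values Pvalb kept its call at −0.45 (adjusted p = 0.00978), and its other probe gave −1.17. Prkag3, the AMPK subunit of fast fibers, had −0.80 (adjusted p = 0.0464), and lost its call under 21 of 31 alternatives.

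Genes of glycogen use and of glycolysis were lower in AR113Q-HFD quadriceps. Of 15 glycogen genes tested, 1 was higher and 10 lower, with a median of −0.55, and 3 and 8 with a median of −0.36 after quantile normalization. Phka1, the muscle α subunit of phosphorylase kinase, had log2 signals of 6.53, 6.73, 6.07 and 6.98 on the CTR-HFD arrays and 4.99, 5.28, 4.98, 5.30 and 4.95 on the AR113Q-HFD arrays. The groups did not overlap, and the log2 fold change was −1.48 (SE 0.15; limma, adjusted p = 7.68e-06). Pgm1, the phosphoglucomutase that joins glycogen to glycolysis, had log2 signals of 8.36, 8.56, 8.19 and 8.54 on the CTR-HFD arrays and 7.34, 7.52, 7.24, 7.50 and 7.24 on the AR113Q-HFD arrays. The fitted log2 change was −1.05 (SE 0.11; limma, adjusted p = 6.43e-06), and −0.72 after quantile normalization. Ugp2, which makes UDP-glucose, had −0.74 (adjusted p = 4.24e-05) and kept its call after quantile normalization. The phosphorylase Pygm had −0.50 (adjusted p = 0.000129), which was −0.12 (adjusted p = 0.166) after quantile normalization. Stbd1, which binds starch and glycogen, was the gene that rose, by 0.52 (adjusted p = 0.0268) on the log2 scale, a call lost under 8 of 31 alternatives, median centring (adjusted p = 0.102) and leaving out CTR-HFD replicate 3 (adjusted p = 0.0749) among them.

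Of 14 glycolysis genes, 0 were higher and 11 lower by limma, all 14 had a negative log2 fold change, and the median was −0.47. After quantile normalization 5 were lower and the median was −0.11. Besides Pfkfb3, the falls that held under that scaling included those of the muscle phosphoglycerate mutase Pgam2, of phosphofructokinase (Pfkm) and of hexokinase 2 (Hk2). Pgam2 had log2 signals of 8.40, 8.65, 8.50 and 8.60 on the CTR-HFD arrays and 7.53, 7.83, 7.54, 7.91 and 7.69 on the AR113Q-HFD arrays. On the log2 scale the change was −0.84 (SE 0.09; limma, adjusted p = 1.5e-05), and −0.44 after quantile normalization. Pfkm had −0.66 (adjusted p = 1.98e-05) and Hk2 −0.82 (adjusted p = 0.00148). Ldha and Gapdh, at −0.49 (adjusted p = 0.000265) and −0.45 (adjusted p = 0.000946), did not keep theirs after quantile normalization, with −0.05 and −0.02, but kept them with the authors' values, with −0.45 and −0.18. The other Ldha probes gave −0.90 and −0.79, and the 6 other Gapdh probes gave −0.66 to −0.49, all at an adjusted p under 0.05. Of 8 facilitated sugar transporters tested, 1 was higher and 1 lower. Slc2a4, which encodes the insulin-responsive glucose transporter GLUT4, had log2 signals of 6.54, 6.73, 6.50 and 6.71 on the CTR-HFD arrays and 5.80, 5.91, 5.57, 6.04 and 5.95 on the AR113Q-HFD arrays. Its log2 fold change was −0.77 (SE 0.09; limma, adjusted p = 3.09e-05). Slc2a5, which encodes the fructose transporter GLUT5, was well above background on 0 of 4 CTR-HFD and 5 of 5 AR113Q-HFD arrays and was at least 2.55-fold higher (adjusted p = 0.0115 from limma), a call that was lost with normexp background correction.

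**Figure D4:**
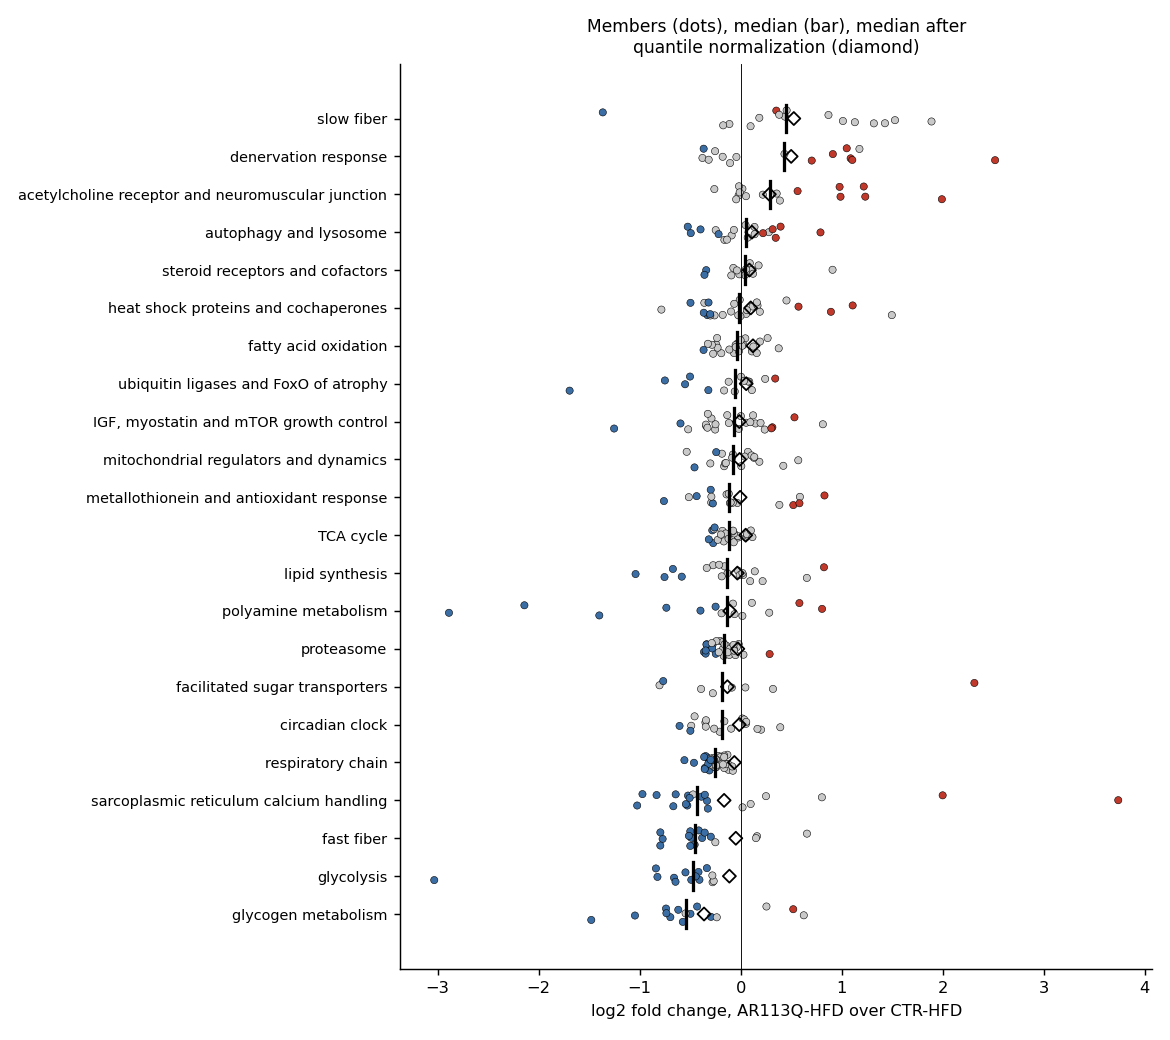
Log2 fold change of AR113Q-HFD over CTR-HFD quadriceps (x axis) for the tested members of 22 gene lists (rows), with members at an adjusted p under 0.05 in red (higher) or blue (lower) and the rest in grey; bars give the list's median and diamonds its median after quantile normalization. The neuromuscular junction and denervation lists have medians of 0.29 and 0.43 here and 0.28 and 0.50 after quantile normalization, while the fast fiber, glycolysis and respiratory chain medians move from −0.46, −0.47 and −0.26 to −0.05, −0.11 and −0.06.

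Genes of oxidative metabolism differed by small amounts, and the medians of fatty acid oxidation and the TCA cycle turned sign with the scaling. Of 24 genes of fatty acid oxidation, 0 were higher and 1 lower, with a median of −0.04 that was 0.12 after quantile normalization, and 1 was higher and 0 lower without CTR-HFD replicate 3. The 1 was Mlycd, which breaks down malonyl-CoA, at −0.37 (adjusted p = 0.0239), a call lost under 10 of 31 alternatives. Of 35 respiratory chain genes, 0 were higher and 13 lower and all 35 had a negative log2 fold change, with a median of −0.26, and 30 were among the 1000 brightest genes. After quantile normalization 1 was higher and 2 lower, with a median of −0.06, and without CTR-HFD replicate 3 in the original scaling 7 were lower. Ndufs7, a subunit of complex I, had a change of −0.46 (adjusted p = 0.000798) on the log2 scale, with −0.20 after quantile normalization, where it kept its call, and lost the call after median centring (adjusted p = 0.0991). Of 23 genes of the TCA cycle, 0 were higher and 4 lower, with a median of −0.12, and 4 higher and 0 lower with 0.05 after quantile normalization. Mdh2 showed this turn, with −0.32 (adjusted p = 0.0105), and 0.18 (adjusted p = 0.038) with the authors' values. Of 19 mitochondrial regulators, 0 were higher and 2 lower, with a median of −0.08.

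Of 19 genes of lipid synthesis, 1 was higher and 4 lower, with a median of −0.13. Srebf1, the transcription factor that drives the fatty acid synthesis genes, had log2 signals of −1.69, −1.43, −1.64 and −1.23 on the CTR-HFD arrays and −2.59, −2.60, −2.42, −2.50 and −2.60 on the AR113Q-HFD arrays. The groups did not overlap, and the log2 fold change was −1.04 (SE 0.13; limma, adjusted p = 2.89e-05). Lpin1, a phosphatidate phosphatase, and Me1, the malic enzyme that supplies NADPH, had −0.75 (adjusted p = 0.000104) and −0.67 (adjusted p = 0.00408). Pnpla3, a lipid droplet protein, rose by 0.82 (adjusted p = 0.00696) on the log2 scale. With normexp the calls of Srebf1 (adjusted p = 0.0703), Lpin1 (adjusted p = 0.0682) and Pnpla3 (adjusted p = 0.724) were lost. That of Me1 was lost after median centring (adjusted p = 0.0627). Another Lpin1 probe gave −0.96 and passed, while another Pnpla3 probe gave 0.97 and did not (adjusted p = 0.0648). Other Me1 probes gave −0.54, which passed, and −0.40, which did not (adjusted p = 0.0841). Fasn, the fatty acid synthase, had log2 signals of −3.61, −2.25, −3.30 and −2.17 on the CTR-HFD arrays and −2.99, −2.45, −2.37, −3.59 and −2.88 on the AR113Q-HFD arrays. The groups overlapped and the log2 fold change was −0.03 (SE 0.41; limma, adjusted p = 0.977), while on the NCD arrays it was 1.48 (adjusted p = 0.0121). The test of the difference between these gave −1.51 (adjusted p = 0.992).

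Of 26 heat shock proteins and cochaperones, 3 were higher and 5 lower, with a median of −0.02 that was 0.10 after quantile normalization. Those that rose were Hspa2, a relative of HSP70, by 1.11 (adjusted p = 0.000586) on the log2 scale, Dnaja4 by 0.89 (adjusted p = 0.00967) and Bag3, a cochaperone of the Z-disc, by 0.57 (adjusted p = 0.0178). The Bag3 call was lost under 4 of 31 alternatives. The CTR-HFD values of the 3 were highest on replicate 3, at −0.64, 4.90 and 5.36. Of 24 genes of IGF, myostatin and mTOR growth control, 3 were higher and 2 lower, with a median of −0.07, shares near those over all genes. Igfbp5, which binds insulin-like growth factors, had log2 signals of 4.63, 4.65, 4.31 and 5.10 on the CTR-HFD arrays and 3.51, 3.59, 3.68, 3.61 and 2.70 on the AR113Q-HFD arrays. The fitted log2 change was −1.25 (SE 0.20; limma, adjusted p = 0.000369). Eif4ebp1, the translation repressor that mTOR phosphorylates, rose by 0.53 (adjusted p = 0.00638) on the log2 scale and Rptor, a subunit of mTOR complex 1, by 0.30 (adjusted p = 0.00702). The Rptor call was lost under 3 of 31 alternatives, median centring (adjusted p = 0.122) and normexp (adjusted p = 0.493) among them. That of Eif4ebp1 was lost with normexp (adjusted p = 0.183). Of 18 metallothionein and antioxidant genes, 3 were higher and 4 lower. Catalase (Cat) and metallothionein 2 (Mt2) rose by 0.58 (adjusted p = 0.0124) and 0.83 (adjusted p = 0.0299) with overlapping groups, calls that were lost under 3 and 8 of 31 alternatives, and glutathione peroxidase 3 (Gpx3) had −0.76 (adjusted p = 0.000891). Of 18 clock genes 0 were higher and 2 lower, and of 13 genes of steroid receptors and their cofactors 0 were higher and 2 lower. By a dimmer probe, which these counts do not use, the cofactor gene Ncor1 rose by 0.86 (limma, adjusted p = 7.68e-06) on the log2 scale. Other dimmer probes of Ncor1 gave −0.10 and −0.15 and did not pass.

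Marker genes of other cells were read beside these results. Of 8 skeletal muscle fiber markers, which had mean log2 signals of 7.72 to 7.87 on CTR-HFD and 7.26 to 7.45 on AR113Q-HFD arrays, 7 were lower and 1 higher, and 3 were lower and 1 higher after quantile normalization. Of 8 white adipocyte, 5 brown adipocyte, 12 macrophage, 5 red blood cell, 9 endothelial, 5 satellite cell and 5 smooth muscle markers tested, 0 were higher and 0 lower by limma, while without CTR-HFD replicate 3 a brown adipocyte and a red blood cell marker were higher and a white adipocyte and a satellite cell marker were lower. All 6 lymphocyte markers tested had a negative log2 fold change, with a median of −0.39 and 1 of them lower, and their mean log2 level was −2.76 to −2.20 on CTR-HFD and −3.54 to −2.61 on AR113Q-HFD arrays. The mean log2 level of the white adipocyte markers ran from 0.93 to 2.86 on CTR-HFD and from 0.68 to 2.91 on AR113Q-HFD arrays. The brown adipocyte markers were dim, at −4.93 to −3.22 and −4.18 to −3.03, and Ucp1 was well above background on 0 of 4 CTR-HFD and 2 of 5 AR113Q-HFD arrays. Of 8 Schwann cell, 9 fibroblast and 5 tendon markers, 1 each was higher, which were Cnp at 0.27 (adjusted p = 0.0448), a call lost under 19 of 31 alternatives, Lum at 0.42 (adjusted p = 0.00559) and Scx at 0.79 (adjusted p = 0.0216), and the Schwann cell count was 0 after quantile normalization. The part of other cells in the changes above was not tested.

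The genotype difference on the HFD was set beside that on the NCD, whose fold changes come from other arrays. Both differences were taken from the same fit over all groups, which gives each gene a shared residual variance. A gene with a small shared variance passes more readily on both diets. The counts of genes that passed on both diets are therefore not independent evidence, whereas the signs come from separate arrays. Of the 691 genes counted as higher on the HFD, 682 had a positive log2 fold change on the NCD and 517 had an adjusted p under 0.05 there, where 8.31% of all genes were higher and 9.04% lower. Of the 476 lower genes, 469 had a negative value on the NCD and 397 had an adjusted p under 0.05. No gene of these passed in the opposite direction. The interaction of genotype and diet had an adjusted p under 0.05 for 0 genes by limma, and no adjusted p was below 0.832. An unadjusted p under 0.05 was reached by 1140 of 24821 genes, no more than chance alone gives at that threshold. The 5 genes with the smallest interaction p were Klhl29, Syne1, Septin10, Slco4a1 and Gatd3a. Slco4a1, an organic anion transporter, had log2 signals of −3.96, −4.45, −4.33 and −4.16 on the CTR-HFD arrays and −2.01, −2.39, −1.82, −2.10 and −2.22 on the AR113Q-HFD arrays. On the log2 scale the change was 2.11 (SE 0.16; limma, adjusted p = 5.56e-07) and on the NCD 1.11 (adjusted p = 6.79e-05), a difference of 1.0 (adjusted p = 0.832). Klhl29 and Septin10 had 0.73 (adjusted p = 2.22e-05) and 0.62 (adjusted p = 2.5e-05) on the HFD and 0.14 and 0.15 on the NCD. Another Klhl29 probe gave 0.42 on the HFD (limma, adjusted p = 0.148) and did not pass. With normexp the HFD calls of Klhl29, Septin10 and Slco4a1 were lost (adjusted p of 0.492, 0.695 and 0.18). Syne1 and Gatd3a, at 0.07 (adjusted p = 0.631) and −0.13 (adjusted p = 0.227), did not pass on the HFD and had −0.46 and 0.31 on the NCD. Ubd, with −3.11 on the HFD, had −0.37 on the NCD (adjusted p = 0.735), and the difference did not pass (adjusted p = 0.914). A p that misses the threshold does not show that the difference was the same on both diets.

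**Figure D5:**
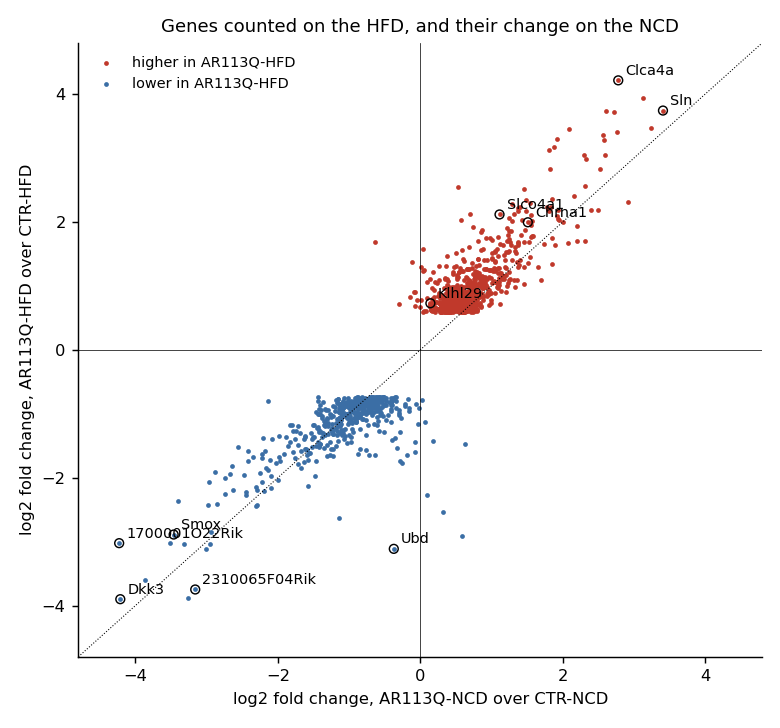
Log2 fold change of AR113Q-NCD over CTR-NCD (x axis) against that of AR113Q-HFD over CTR-HFD (y axis) for the 691 genes counted as higher (red) and the 476 counted as lower (blue) on the HFD; the dotted line marks equal change. The genes were chosen by their HFD difference, with a variance taken from the arrays of both diets. Of them, 682 of the higher and 469 of the lower genes have the same sign on both diets. Ubd, at −3.11 against −0.37, lies far from the line.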

How the data were processed

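RNA of mouse quadriceps was labelled with Cy3 and hybridised to 1-colour Agilent whole-genome arrays, 19 in all. Per the file headers, intensities are the processed signals of Agilent Feature Extraction 10.7.3.1, background-subtracted by that program, with probe positions on mm9. The deposited series table holds the authors' normalized log2 values for 25940 probes (lowest r with the scanner values 0.979, column medians 7.59 to 7.65) and served as an alternative. The scale was smaller than that of the scanner values (median slope 0.729), and its normalization is not given in the sources used here.

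Control and outlier spots were left out, log2 signals were set relative to the 75th percentile of each array, spots of a probe were averaged, and probes well above background in at least 0.5 of their spots on at least 4 of 19 arrays were tested (32021 probes, 24821 genes). A gene was read by its brightest probe. The fit was limma 3.58.1 in R 4.3.3 over all 4 groups without a block, with Benjamini-Hochberg adjustment, and was tested on simulated data. Figures were drawn with matplotlib 3.10.9. Genes counted had an adjusted p under 0.05 and a fold of at least 1.5 or at most 0.6. Named genes were the 10 largest rises and falls with arrays that did not overlap, the 5 with the smallest interaction p, and from each list the members with the smallest adjusted p and those needed to state what did not pass; a few items are not reported here. Members and lists were chosen with earlier results of these data known. Alternatives changed the scaling, background correction, probe filter, arrays in the fit, slide or replicate number as a block, weights, and left out each array in turn. The normexp alternative added an offset of 50 before the log, which shrinks the folds of dim probes. Promoter sequences are from RefSeq (GRCm38.p6).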

Additional observations from a re-analysis of the deposited data

Results flagged for a closer look

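Among the genes named, 220 sets of 1 gene in 1 HFD group were read for a single array far from the others of its group, and 8 were flagged. By chance about 1 in 20 groups is flagged. CTR-HFD replicate 3 was the array in 5 of them, each time the highest of its group. It read 3.35 for Atp2a2, against 0.53 for the next array, −0.64 for Hspa2 (next −1.50), −1.57 for Ncam1 (next −1.99), −1.93 for Tinag (next −3.21) and −6.41 for Baalc (next −7.54). AR113Q-HFD replicate 3 was the highest of its group for Ubd at −3.99, with the next array at −5.55, and the lowest for Mdh2 at 7.96, with the next at 8.21. AR113Q-HFD replicate 5 was the lowest of its group for Igfbp5 at 2.70, with the next at 3.51.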

How the results depend on the processing

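The count of 691 higher and 476 lower genes became 199 and 246 with normexp background correction, 1923 and 2532 without fold thresholds, and 772 lower genes with the slide as a block. Leaving out 1 array at a time gave 593 to 812 higher and 413 to 573 lower genes. The other alternatives kept both counts within 1.5 times, and the interaction count was 0 in each alternative run. With the replicate number as a block, 693 genes were higher and 510 lower, and 96 of 97 named genes that passed kept their call. Same-numbered arrays of the HFD groups did not deviate together throughout (r of 0.434, 0.167, −0.206 and −0.0996), so the numbers were not read as a pairing. The arrays numbered 4 lay on different slides, and CTR-HFD replicate 4 shared its slide with AR113Q-HFD replicate 5 (r = 0.179). These r values do not settle whether the slide matters, and the main fit holds no slide term. With the slide as a block, all 97 of these genes kept their call. Of these 97 genes, 84 kept their call after quantile normalization, 86 with the authors' values, 73 after median centring, 43 with normexp and 81 with only the 9 HFD arrays fitted. Signs turned for small values. The list medians became 0.0058, 0.0548 and 0.0281 for ubiquitin ligases, 0.0244, 0.1218 and 0.1308 for fatty acid oxidation and 0.0479, 0.0995 and 0.1206 for heat shock proteins, after median centring, quantile normalization and with the authors' values in turn, and 0.0495 and 0.0546 for the TCA cycle under the last pair. Gatd3a turned to 0.0202 after quantile normalization and 0.0091 with the authors' values, Mdh2 to 0.1532 and 0.1807, and Myh8 to 0.069 after the first. Chrne turned to 0.0437 after median centring, 0.0161 with normexp and 0.0136 to 0.0978 without single arrays. Fasn turned to 0.0391 after median centring, 0.0071 after quantile normalization, 0.0213 with normexp, 0.023 with the slide as a block, and 0.0087 to 0.1961 without single arrays. The causes were not tested. Of the calls lost with normexp, some were of bright genes with folds like the original ones and others of genes not well above background in 1 group.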
